A study of Saccharomyces cerevisiae and Schizosaccharomyces pombe with 8 samples.

Results

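The snoRNA genes of budding yeast were described from reads at the cleaved and polyadenylated ends of RNA. All genes annotated as snoRNA in the S. cerevisiae genome (RefSeq, build R64) were taken, which gave 76 of 6431 nuclear genes. By the annotation's notes 47 carry box C/D, the pair of U3 genes SNR17A and SNR17B included, and 29 carry box H/ACA. The genes lie in 3 settings: 8 in an intron of a protein-coding gene, 17 in 5 clusters of neighbouring box C/D genes, and 51 on their own. Both groups compared were wild type, grown in minimal medium (2 libraries) or in rich medium (2 libraries), and nothing else distinguishes them in the labels. The labels give neither the strain nor the recipes of the media, and they do not say whether libraries of a medium came from separate cultures, so p-values measure only the spread between these libraries, which may be technical. The 4 other libraries of the series are from fission yeast and were not used.

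Small nucleolar RNAs guide chemical modification of ribosomal RNA: box C/D RNAs direct ribose methylation with the methyltransferase Nop1, and box H/ACA RNAs direct pseudouridylation with the pseudouridine synthase Cbf5. A few, among them U3, U14 (SNR128), SNR30 and SNR10, are needed for cleavage of the ribosomal precursor. In budding yeast the polymerase is released downstream of most snoRNA genes by the Nrd1-Nab3-Sen1 complex, which reads short motifs in the nascent RNA, the extension can be given a short poly(A) tail by the TRAMP complex, and the nuclear exosome trims it back to the mature end. The mature RNA carries no poly(A) tail, so a library made from poly(A)+ RNA samples the tailed forms at these loci and not the mature snoRNA.

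The 4 snoRNA loci whose downstream sequence is shown first are those with the most reads past the end (SNR33, SNR86 and SNR51) and SNR13, a standard model of Nrd1-dependent termination. Each line runs from the first base past the annotated end, 5′ to 3′ on the gene's strand, and capitals mark every GTAA or GTAG (the core motifs of Nrd1) and TCTT or CTTG (those of Nab3). Motifs may overlap, as TCTT and CTTG do in TCTTG.
SNR33 (chrIII:142204-142363, minus strand): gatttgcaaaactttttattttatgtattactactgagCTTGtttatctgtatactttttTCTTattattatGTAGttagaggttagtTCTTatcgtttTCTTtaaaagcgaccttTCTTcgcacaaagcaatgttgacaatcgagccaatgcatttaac
SNR86 (chrXIII:761950-762109, minus strand): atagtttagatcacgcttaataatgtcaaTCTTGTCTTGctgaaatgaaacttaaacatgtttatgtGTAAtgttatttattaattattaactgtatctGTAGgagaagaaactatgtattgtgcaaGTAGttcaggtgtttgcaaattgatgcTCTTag
SNR51 (chrXVI:718570-718699, minus strand): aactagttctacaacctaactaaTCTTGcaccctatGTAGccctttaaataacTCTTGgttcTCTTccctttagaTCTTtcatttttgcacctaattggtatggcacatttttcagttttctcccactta
SNR13 (chrIV:1403043-1403192, plus strand): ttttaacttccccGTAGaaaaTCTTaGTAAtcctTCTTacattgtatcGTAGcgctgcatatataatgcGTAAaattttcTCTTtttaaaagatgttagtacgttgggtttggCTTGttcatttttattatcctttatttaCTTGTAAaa
The 160 nt past SNR33 hold 1 Nrd1 and 5 Nab3 motifs, and the 160 nt past SNR86 hold 3 and 5. The 130 nt past SNR51 hold 1 and 6, and the 150 nt past SNR13 hold 5 and 5.

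The same motifs were counted in the 150 nt past the end of every snoRNA gene, beside the 150 nt past the stop codon of all 6002 protein-coding genes. Unlike the windows for reads, these were not cut at the next gene or the intron's end. Some windows of clustered and intronic genes therefore reach into the next gene or an exon. A Nab3 motif of either kind stood on the gene's strand of 70 of 76 snoRNA windows (92.1%) and of 74.4% of coding windows, and on the opposite strand of 59.2% and 69.3%. The snoRNA windows held 3.25 Nab3 motifs on average on their own strand, against 1.66 in the coding windows. For an Nrd1 motif of either kind the own-strand shares were 71.1% and 66.7%, and GTAG alone stood in 46.1% and 29.0%. GTAG stood on the opposite strand of 25% of snoRNA and 32.8% of coding windows, and GTAA on the own strand of 53.9% and 54.7%. TCTT alone stood on the own strand of 92.1% of snoRNA and 66.5% of coding windows (opposite strand 52.6% and 59.5%), and CTTG of 69.7% and 34.8% (opposite strand 23.7% and 33.6%). TATATA, a form of the efficiency element of coding-gene polyadenylation that reads the same on both strands, stood in 14.5% of snoRNA and 42.3% of coding windows. Past the 68 snoRNA genes outside introns, a Nab3 motif stood in 94.1%, an Nrd1 motif in 73.5% and TATATA in 16.2% of windows. The Nab3-type and the TATATA contents thus lay on opposite sides of the coding windows. The Nrd1 comparison depended on the window: in 300 nt an Nrd1 motif of either kind stood in 82.9% of snoRNA and 89.0% of coding windows, and GTAA in 67.1% and 78.1%. For TCTT (98.7% and 87.6%), CTTG (82.9% and 63.3%), GTAG (60.5% and 51.3%) and TATATA (27.6% and 55.4%) the direction in 300 nt was that of 150 nt. These are matches of letters, and no binding was measured. The bases of the 150 nt windows also differed, with 36.9% thymine and 29.8% adenine past snoRNA genes, against 35.4% and 33.5% past coding genes.

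In all, 7898 reads fell on the same strand as a snoRNA gene between its start and 500 nt past its end, on 75 of the 76 genes, with a median of 51 reads per gene. SNR33, a box H/ACA guide for the large subunit, held 17.8% of them and the 10 most abundant genes together 55.5%. SNR60 had no read in any library, which allows up to 2.55 and 2.39 reads per 1000000 nuclear reads (CPM) in minimal and 1.46 and 1.93 CPM in rich medium, counting error only. The minimal libraries held 1174191 and 1253021 reads in total and the rich libraries 2057269 and 1558011, of which 97.5% in both minimal libraries and 96.6% and 96.5% in the rich libraries could be assigned to a gene. Depth and the assigned share moved with the medium, and their part in the results was not tested. Reads at near-identical copies, such as SNR17A and SNR17B, cannot be told apart with certainty, since the placing of such reads is not stated.

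Most reads lay past the annotated end of the snoRNA. Over the 4 libraries 6663 reads were past the end and 1235 within the gene, and the share past the end was 84.7% ± 1.48 in minimal and 84.2% ± 0.594 in rich medium (SD, n = 2 each). Of the 65 genes with at least 10 reads, 58 had most reads past the end, 16 had none within, and the median gene had 96.2% past the end. For the 5258 protein-coding genes with at least 10 reads, that median was 99.5%. Box H/ACA genes had 92.5% ± 1.93 of reads past the end in minimal and 91.5% ± 0.292 in rich medium. Box C/D genes other than U3 had 75.5% ± 1.65 in minimal and 75.02% ± 1.08 in rich medium (SD, n = 2 each). Within each box class the media differed by less than the spread between libraries. The distance between the box classes rested in part on a few genes. SNR47, SNR75, SNR68, SNR55 and SNR62 held 668 of the 876 reads within C/D genes, and without these 5 the C/D share past the end was 91.1% ± 0.238 in minimal and 91.7% ± 1.95 in rich medium. SNR84 held 211 of the 335 reads within H/ACA genes, and without it the H/ACA share was 96.9% ± 0.750 in minimal and 96.6% ± 0.793 in rich medium. Without SNR33, which had no read within, the H/ACA share was 89.0% ± 2.63 in minimal and 87.0% ± 0.0118 in rich medium.

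The most used cleavage position was taken for the 52 genes with at least 20 reads. Its median lay 80 nt past the end (quartiles 45.25 and 147.75 nt). It lay 50 to 160 nt past in 28 genes, over 160 nt past in 10, 11 to 49 nt past in 3, within 10 nt of the end in 4 and further inside the gene in 7. SNR30 counts among the 7 only through a tie, with 7 reads each at 25 nt before and 153 nt past its end. The sites around these positions held 8.86% and 36.7% of its 79 reads. A site joins all positions within 24 nt of a more used one, and only sites that drew 5% or more of a gene's total are counted. The median gene had 3 sites, 5 genes had a single site and 17 had 4 or more.

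**Figure D1:**
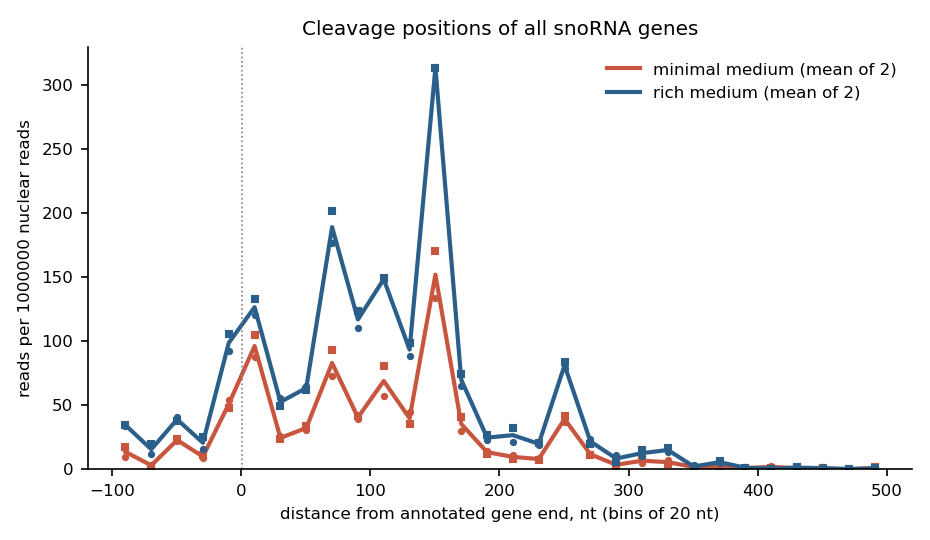
Reads per 1000000 nuclear reads, summed over all snoRNA genes, by distance from the annotated gene end in bins of 20 nt. Lines are means of the 2 libraries, in minimal (red) and rich medium (blue), and points are single libraries (circle replicate 1, square replicate 2). The dotted line marks the gene end. In both media the highest bin is 141 to 160 nt past the end, where SNR33 and SNR86 have their main sites, and in that bin both minimal libraries (134 and 170.0 CPM) lie below both rich libraries (314 and 313 CPM).

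SNR33 ended in a narrow zone. Its main site lay 150 nt past the end and took 75.9% of its 1409 reads, with 550 at the single most used position, and a second site at 108 nt took 23.2%. No read lay within the gene, which allows a share of up to 0.213% (3 counts, counting error only). The main site held 95.4 and 113 CPM in minimal libraries, against 238 and 209 CPM in rich libraries. The second site held 23.0 and 27.9 CPM in minimal libraries, against 64.6 and 84.7 CPM in rich libraries. At both sites the groups did not overlap. Between the end of SNR33 and the start codon of CTO1, the next gene on this strand, lie 193 nt, and the window of SNR33 stops there. CTO1 itself, from its start codon on, held 14.5 and 19.95 CPM in minimal libraries and 33.5 and 29.5 CPM in rich libraries, and of these 2 and 2 reads in minimal and 7 and 4 reads in rich libraries lay inside its coding sequence.

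SNR86, an H/ACA guide and with 1004 nt the longest snoRNA gene of the 76, had 77.3% of its 520 reads at a site 147 nt past the end and 13.5% at 105 nt. SNR51, the last gene of its cluster, had 59.4% of 520 reads at 68 nt, 22.3% at 19 nt and 14.6% at 115 nt. SNR49, an H/ACA guide, had 71.9% of 153 reads at 127 nt. SNR11, another H/ACA guide, spread 263 reads over 6 sites between 17 and 300 nt, none above 27.8%. The spread of cleavage positions thus differed between snoRNA genes, from 1 or 2 narrow sites to 6.

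SNR13 gave few reads, 47 over the 4 libraries, although it is a much studied terminator. Its most used site lay 91 nt past the end, with 1 and 1 reads in minimal and 13 and 7 reads in rich libraries. The next lay at 177 nt, with 5 and 2 reads in minimal and 4 and 4 reads in rich libraries. TRS31, the gene that SNR13 transcripts run into when termination fails, lies downstream, with 279 nt between them. It held 37.5 and 32.7 CPM in minimal and 40.8 and 37.9 CPM in rich libraries, with no read inside its coding sequence in any library.

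A smaller set of genes ended inside or at the annotated end. The lines below show the 60 bases around the most used position of SNR67, whose site is the furthest downstream of those printed, and of SNR62, SNR68, SNR75 and SNR84, whose most used position is within the gene. Capitals mark the 10 bases up to and including the cleavage position.
SNR67 (chrV:61647-61706, plus strand): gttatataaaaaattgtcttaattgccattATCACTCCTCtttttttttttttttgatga
SNR62 (chrXV:409753-409812, minus strand): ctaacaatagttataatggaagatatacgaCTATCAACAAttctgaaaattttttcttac
SNR68 (chrIX:97193-97252, plus strand): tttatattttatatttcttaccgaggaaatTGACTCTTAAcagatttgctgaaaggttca
SNR75 (chrXIII:297960-298019, plus strand): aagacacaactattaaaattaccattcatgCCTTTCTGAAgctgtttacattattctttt
SNR84 (chrIV:1492635-1492694, minus strand): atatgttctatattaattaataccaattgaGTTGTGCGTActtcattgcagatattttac
SNR62, a box C/D methylation guide, had 79.0% of 262 reads in a site whose most used position lay 8 nt before its end, but the site straddles the end, with 102 of its 207 reads within the gene and 105 past it. SNR68, also box C/D, had 92.5% of 147 reads in its only site, with the most used position 14 nt before the end and 121 of 136 reads within the gene. SNR75, in the middle of the longest cluster, had 76.7% of 159 reads at 7 nt before the end. In SNR84, an H/ACA guide annotated as 550 nt long, 58.7% of 283 reads lay 178 nt before the end and 14.1% lay 81 nt past it.

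SNR47, a box C/D guide for both subunits, carried reads both inside the gene and just past its end, and its sequence is shown for that reason. The line gives the whole gene and the 20 bases past it, and capitals mark the 7 positions with at least 10 reads, from 49 nt before the end to 16 nt past it.
SNR47 (chrIV:541582-541700, minus strand): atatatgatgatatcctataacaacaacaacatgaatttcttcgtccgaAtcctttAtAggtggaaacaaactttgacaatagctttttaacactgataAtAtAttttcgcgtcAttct
Of its 333 reads 54.1% lay in a site 49 nt before the end and 34.5% in a site 1 nt past it. The internal site held 19.6 and 19.2 CPM in minimal libraries, against 37.4 and 35.9 CPM in rich libraries. The end site held 11.9 and 20.7 CPM in minimal libraries, against 17.0 and 25.7 CPM in rich libraries. The groups were apart at the internal site and overlapped at the end site.

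**Figure D2:**
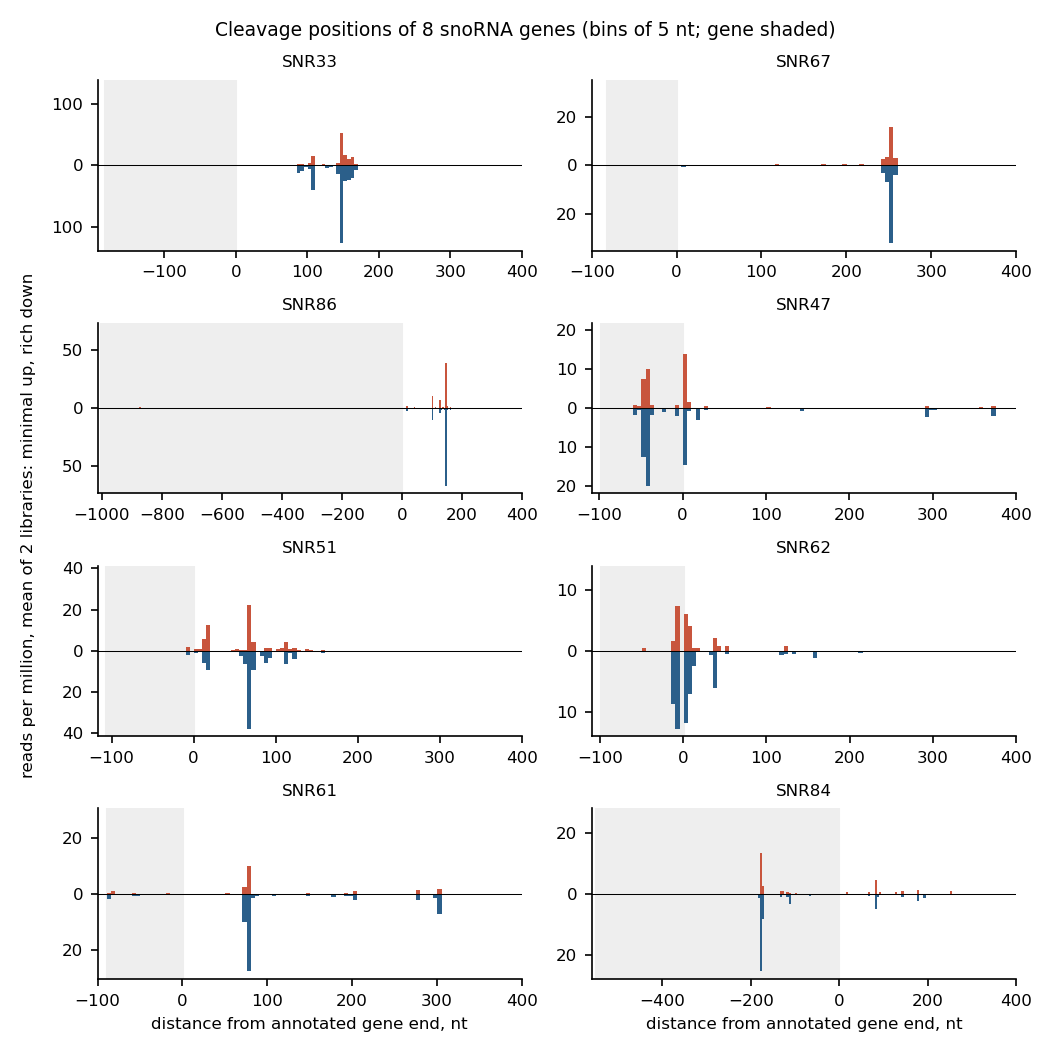
Cleavage positions of 8 snoRNA genes. Each panel has distance from the annotated end on the horizontal axis (bins of 5 nt) and reads per 1000000 nuclear reads, mean of 2 libraries, upward for minimal medium (red) and downward for rich medium (blue), with the gene shaded. SNR33, SNR86, SNR51, SNR61 and SNR67 end past the gene, SNR47 and SNR84 have their main site inside it, and the main site of SNR62 straddles the end.

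Within the clusters, reads gathered at a few genes. SNR51 held 95.9% of the 542 reads of its 3-gene cluster and SNR72 47.2% of the 579 reads of the cluster of 7. SNR67 held 96.7% of the 240 reads of its pair, SNR128 93.9% of 82, and SNR61 61.6% of 464. The windows past the end were unequal, since they stop at the next gene. They were 69 to 265 nt long for genes followed by another of their cluster, and 216 to 500 nt for last genes. In 4 of 5 clusters the gene with the most reads was the last one, and the part of window length in this was not tested. The exception was SNR67, the first of its pair, whose site 253 nt past its end lies just before SNR53, the second gene, since 265 nt separate the pair. Its 225 reads there are 97.0% of the gene's total. SNR55, the middle gene of its cluster, had 83.6% of its 140 reads 95 nt before its end, which is the third base of the gene. This site continues the downstream region of SNR57, whose own most used position lay 138 nt past its end and 142 nt separate the 2 genes. The last genes had 95.5% ± 1.78 of reads past the end in minimal and 94.9% ± 0.0549 in rich medium. The other 12 genes had 66.2% ± 1.54 in minimal and 61.1% ± 6.03 in rich medium (SD, n = 2 each). This lower share rested on SNR75 and SNR55, which held 248 of the 277 reads within these genes: without the pair it was 92.5% ± 2.21 in minimal and 93.4% ± 3.198 in rich medium.

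The 8 intronic genes held few reads of their own. Their windows were limited to the rest of the intron, since reads in the host's exons belong to the host. They summed to 15.6 ± 2.78 CPM in minimal and 30.2 ± 2.72 CPM in rich medium (SD, n = 2 each). The share past the end was 78.4% ± 4.82 in minimal and 95.8% ± 3.75 in rich medium. It rests on few reads, with 4 and 4 within the genes in minimal and 1 and 3 in rich libraries. SNR44, in RPS22B, a gene of the small ribosomal subunit, had 5 and 3 reads in minimal and 19 and 12 reads in rich libraries. SNR24, in ASC1, a ribosome-associated scaffold gene, had 2 and 4 reads in minimal and 17 and 10 reads in rich libraries. SNR54, in IMD4, had 2 and 2 reads in minimal and 9 and 8 reads in rich libraries, 18 of the 21 in a site 225 nt past the snoRNA, 1 nt before the intron's end. In these 3 genes both minimal libraries held fewer reads than both rich libraries. SNR44, the only one tested, fell (log2 change -1.28 ± 0.49 SE, edgeR adjusted p = 0.0437), but it passed the threshold under only 2 of the 8 other settings in which it was tested.

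SNR191, in NOG2, had 1 and 6 reads in minimal and 9 and 4 reads in rich libraries. SNR18, in the elongation factor gene EFB1, had 2 and 3 in minimal and 7 and 4 in rich libraries, and SNR39, in RPL7A, had 4 and 4 in minimal and 3 and 4 in rich libraries. Since the rich libraries were deeper, SNR39 stood higher in minimal medium per 1000000 reads, at 3.41 and 3.19 CPM in minimal libraries, against 1.46 and 2.57 CPM in rich libraries. SNR38, in TEF4, and SNR59, in RPL7B, had 2 reads each in all, every one of them in a rich library. Set against their hosts the intronic snoRNA reads were from 0.149% (SNR18) to 2.70% (SNR54) of the host's own reads over the 4 libraries. In edgeR's quasi-likelihood test 5 of the 8 hosts rose in minimal medium and 1 fell, beside 17.7% of all genes tested that rose and 15.7% that fell. Among those that rose were RPL7B with a log2 change of 1.09 (adjusted p = 5.12e-05), RPL7A with 0.89 and TEF4 with 0.70. RPS22B, the host of SNR44, was the gene that fell, at 2402 ± 29.3 CPM in minimal and 4619 ± 449 CPM in rich medium (SD, n = 2 each; log2 change -0.87, adjusted p = 0.000405).

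The comparison of the media asks which snoRNA loci give more or fewer tailed RNA ends when wild type grows in minimal in place of rich medium. Summed over all snoRNA genes, the reads were lower in minimal medium: they came to 750.3 and 845 CPM in minimal libraries, against 1600.2 and 1711 CPM in rich libraries (798 ± 67.1 and 1656 ± 78.5, SD, n = 2 each). The fold of minimal over rich was 0.482 for all genes, 0.472 for H/ACA, 0.491 for C/D other than U3, 0.505 for U3, 0.517 for intronic, 0.514 for clustered and 0.471 for single genes, so every class lay between 0.471 and 0.517. Among the 52 genes with at least 20 reads, both minimal libraries lay below both rich libraries in 47 and above both in 0. Over all 5148 genes with at least 20 reads, 36.8% had both minimal libraries below both rich. The 5 snoRNA genes in which the media overlapped, named here after their values were seen, were SNR30, SNR69, SNR10, SNR39B and SNR191.

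Each gene was tested with edgeR's quasi-likelihood test across all genes, with Benjamini-Hochberg adjusted p under 0.05 as the call. Of 43 snoRNA genes that passed the filter on low counts, 29 fell in minimal medium and 0 rose, beside 15.7% of the 4651 genes tested that fell and 17.7% that rose. The median log2 change of the 43 was -1.04 and all 43 were negative, while over all genes tested the median was -0.01. By box class 15 of 22 C/D genes and 14 of 21 H/ACA genes fell. By setting 22 of 34 single genes, 6 of 8 clustered genes and the intronic SNR44 fell. Because 21 of the 43 passed the filter with at most 1 minimal library at its minimum of 7.34 CPM, the test was also run on all 75 genes with a read: 32 fell and 0 rose (12.9% of all 6009 genes fell and 14.5% rose), 70 had a negative log2 change, and the median was -1.03. DESeq2 called 12 of the 43 lower and 0 higher, beside 362 of all 4651 genes tested that fell and 484 that rose. With either minimal library left out edgeR called fewer snoRNA genes lower. The median log2 change of the snoRNA genes tested was then -1.04 without minimal medium replicate 1 and -1.01 without minimal medium replicate 2.

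**Figure D3:**
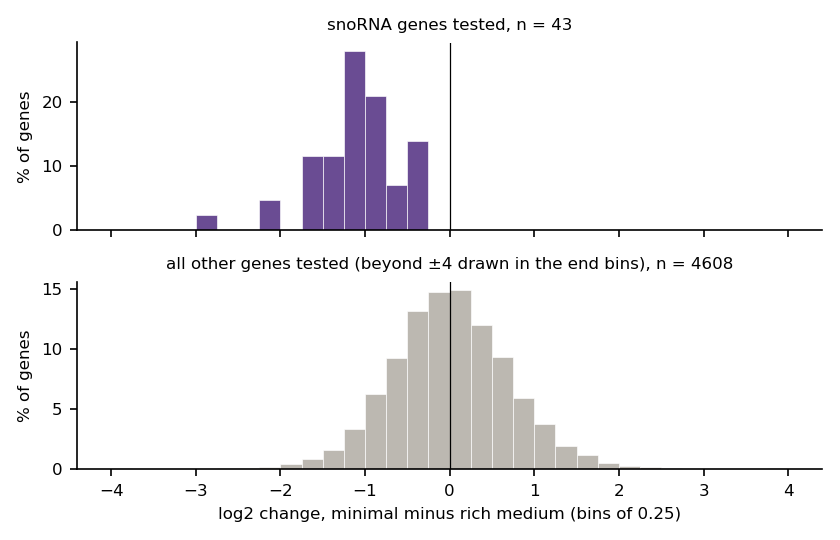
Distribution of log2 changes (minimal minus rich medium) of the 43 snoRNA genes tested (top) and of the 4608 other genes tested (bottom), as percent of genes in bins of 0.25. The snoRNA genes lie between -2.86 and -0.31, on the left side of a distribution of other genes that is centred near zero.

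Among the 43 genes tested the largest fall was that of SNR45, a box C/D RNA that guides acetylation of small subunit rRNA. It had 0.852 and 1.60 CPM in minimal libraries, against 11.2 and 8.34 CPM in rich libraries (log2 change -2.86 ± 0.60 SE, edgeR adjusted p = 0.000623). SNR71, a methylation guide for the large subunit, had 8.52 and 1.60 CPM in minimal libraries, against 26.2 and 23.1 CPM in rich libraries (log2 change -2.23 ± 0.43 SE, edgeR adjusted p = 0.000252). SNR56, a methylation guide for the small subunit, had 2.55 and 1.60 CPM in minimal libraries, against 9.24 and 8.99 CPM in rich libraries (log2 change -2.03 ± 0.53 SE). In these 3 genes the groups did not overlap, and the minimal values rest on few reads. The log2 change of SNR71 was -3.81 without minimal medium replicate 1 and -1.46 without minimal medium replicate 2, passing the threshold both times. SNR56 missed the threshold without either minimal library (edgeR adjusted p = 0.0616 and 0.141). SNR78 and SNR36 did not pass the filter on low counts but stood lower still in proportion. SNR78, a C/D gene, had 1 and 0 reads in minimal and 13 and 10 reads in rich libraries, and SNR36, an H/ACA gene, had 1 and 0 reads in minimal and 9 and 8 reads in rich libraries. SNR4, the other acetylation guide, had 11.1 and 15.2 CPM in minimal libraries, against 31.1 and 35.3 CPM in rich libraries (log2 change -1.25 ± 0.31 SE, edgeR adjusted p = 0.00293). It is named here for its role, after its values were seen.

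SNR61, the last gene of its cluster and a large subunit guide, had 19.6 and 19.2 CPM in minimal libraries, against 64.2 and 68.7 CPM in rich libraries. With a log2 change of -1.70 ± 0.26 SE (edgeR adjusted p = 1.44e-05) it had the smallest adjusted p of the snoRNA genes. SNR35, SNR63, SNR9, SNR49 and SNR189 had log2 changes of -1.73, -1.67, -1.52, -1.39 and -1.38, and in each of them the groups did not overlap. SNR35, SNR9, SNR49 and SNR189 are H/ACA guides and SNR63 is a C/D guide. A further 10 genes that fell (SNR31, SNR46, SNR37, SNR8, SNR55, SNR128, SNR43, SNR75, SNR34 and SNR40) had log2 changes between -1.37 and -0.98.

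Among the 10 most abundant snoRNA genes 8 fell. SNR33 had 120.1 and 142 CPM in minimal libraries, against 306 and 296 CPM in rich libraries (log2 change -1.12 ± 0.18 SE, edgeR adjusted p = 2.82e-05). SNR62, SNR84 and SNR11 had log2 changes of -1.05, -1.03 and -0.96, and SNR67, SNR47 and SNR72 of -0.77, -0.74 and -0.74. The 2 that missed the threshold were SNR51 and SNR86. SNR51 had 47.7 and 82.2 CPM in minimal libraries, against 89.0 and 114 CPM in rich libraries (log2 change -0.56, edgeR adjusted p = 0.0609). SNR86 had 57.1 and 77.4 CPM in minimal libraries, against 86.5 and 114 CPM in rich libraries (log2 change -0.49, edgeR adjusted p = 0.0777). In both the minimal libraries still lay below the rich ones.

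**Figure D4:**
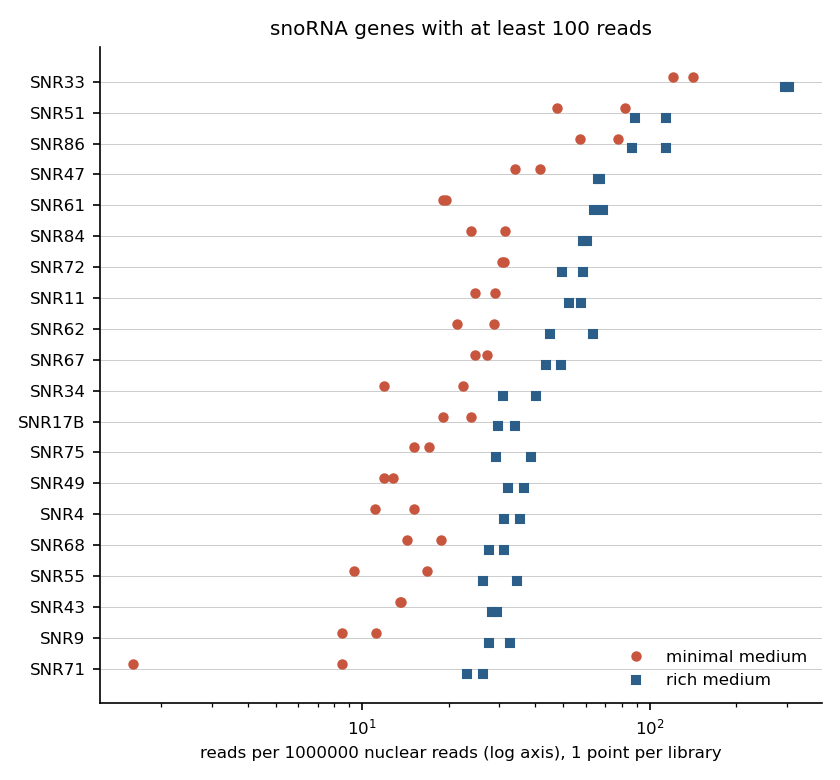
Reads per 1000000 nuclear reads (log axis) of the 20 snoRNA genes with at least 100 reads, from the most abundant at the top. Each point is a library, minimal medium as red circles and rich medium as blue squares below them. In all 20 genes both minimal libraries lie to the left of both rich libraries. The share over all genes with at least 100 reads was not computed, and over all genes with at least 20 reads it was 36.8%.

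The U3 genes differed in their test result. U3 is the RNA of the small subunit processome, and both copies encode it. SNR17A had 6.81 and 6.38 CPM in minimal libraries, against 17.5 and 30.2 CPM in rich libraries (log2 change -1.73 ± 0.39 SE, edgeR adjusted p = 0.00125). SNR17B had 23.8 and 19.2 CPM in minimal libraries, against 29.7 and 34.0 CPM in rich libraries (log2 change -0.49 ± 0.28 SE, edgeR adjusted p = 0.191), and the difference between the copies was not tested. Their ends differed as well: SNR17A had 69.7% of 99 reads in a site 3 nt past its end, while SNR17B spread 166 reads over 6 sites, the most used 269 nt past its end. Another of these sites, with 15.1% of the SNR17B reads, lay 1 nt before the end. Reads of the 2 near-identical copies cannot be told apart with certainty, which limits the comparison of their ends and of their log2 changes.

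Other snoRNAs needed for cleavage of the ribosomal precursor, named here for that role after their values were seen, gave mixed results. SNR128 (U14) fell, with 8.52 and 6.38 CPM in minimal libraries, against 13.1 and 20.5 CPM in rich libraries (log2 change -1.07 ± 0.39 SE, edgeR adjusted p = 0.0344). It passed the threshold under 5 of the 9 other settings in which it was tested, and not with DESeq2 (adjusted p = 0.229) or without minimal medium replicate 1 or 2 or rich medium replicate 2 (edgeR adjusted p = 0.107, 0.269 and 0.201). SNR30 had 6.81 and 14.4 CPM in minimal libraries, against 8.75 and 22.5 CPM in rich libraries, so its groups overlapped (edgeR adjusted p = 0.497). SNR10 had 6.81 and 3.19 CPM in minimal libraries, against 6.81 and 16.05 CPM in rich libraries, and did not pass the filter on low counts.

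The other termination models gave small counts. SNR13 had 5.96 and 3.99 CPM in minimal libraries, against 9.72 and 9.63 CPM in rich libraries, and SNR32 had 10.2 and 4.79 CPM in minimal, against 17.5 and 10.3 CPM in rich libraries. SNR68 had 18.7 and 14.4 CPM in minimal libraries, against 31.1 and 27.6 CPM in rich libraries. The groups did not overlap in these 3 genes, but none passed the threshold (edgeR adjusted p = 0.119, 0.11 and 0.051). SNR85, with 4 reads in each of the 4 libraries, stood higher in minimal medium, at 3.41 and 3.19 CPM in minimal libraries, against 1.94 and 2.57 CPM in rich libraries. SNR82 overlapped, with 3.41 and 1.60 CPM in minimal libraries, against 2.92 and 2.57 CPM in rich libraries, and SNR3 had 0 and 0 reads in minimal and 3 and 3 in rich libraries.

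Reads within the gene and reads past the end were next tested as separate features. Within the gene 6 of 7 snoRNA features tested fell and 0 rose, beside 22.7% of the 415 features of this kind over all genes that fell and 4.34% that rose. Past the end 22 of 38 fell and 0 rose, beside 14.8% of 4446 that fell and 18.6% that rose. Features could pass the filter on low counts through the rich libraries alone, as SNR45 did with 1 and 2 reads past the end in minimal libraries. Among snoRNA features with at least 1 read, 6 within the gene and 26 past the end fell and 0 rose. For that run no share over all features is given, so these counts cannot be set against those of other genes. With the filter, the 6 genes with a fall within were SNR55, SNR84, SNR62, SNR75, SNR47 and SNR68, with log2 changes between -1.27 and -0.85. For SNR55, 117 of the 120 reads within lay in the site 95 nt before its end, which continues the downstream region of SNR57. SNR62 fell in both regions, with a log2 change of -1.13 within and -1.003 past the end. These 2 falls are not separate, since its main site straddles the end with 102 reads within and 105 past. Of the 7 and 38 snoRNA features tested, DESeq2 called 1 and 8 lower, and edgeR called fewer with a minimal library left out. No share over all features is given for these runs either.

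The ratio of past to within reads was tested directly in the 18 snoRNA genes with at least 10 reads in each region. None of the 18 changed in either direction in edgeR or DESeq2, beside 4.85% of 1155 genes with a higher and 0.606% with a lower ratio in minimal medium in edgeR. At an unadjusted p under 0.05 edgeR gave 0 of the 18, beside 16.1% of the 1155 with a higher and 2.25% with a lower ratio. Their log2 changes of the ratio ran from -1.22 to 1.60 with a median of 0.19, against 0.45 over all genes tested. The standard errors were wide, 0.448 for SNR47 and 0.483 for SNR62, which had the narrowest, so changes of moderate size were not detectable at this depth.

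Summed reads between 10 nt before and 50 nt past the annotated end were lower in minimal medium by a smaller factor than those beyond. Within 10 nt of the end the snoRNA genes summed to 100.6 ± 13.4 CPM in minimal and 155 ± 4.07 CPM in rich medium (SD, n = 2 each), a fold of 0.649. At 11 to 50 nt past it, 77.5 ± 1.23 CPM in minimal and 126 ± 8.14 CPM in rich medium gave a fold of 0.616. The SNR51 site at 19 nt went the other way. It held 20.4 and 22.3 CPM in minimal libraries, against 16.04 and 19.9 CPM in rich libraries. The fold at 11 to 50 nt without SNR51 was not computed, so the part of this gene in the smaller fall was not tested. From 51 to 100 nt past the end the sums were 136 ± 16.5 CPM in minimal and 332 ± 21.1 CPM in rich medium, a fold of 0.409, and beyond 100 and up to 200 nt 309 ± 41.7 and 649.7 ± 16.2 CPM, a fold of 0.475. The reads at 11 to 50 nt past the end were 9.75% ± 0.974 of snoRNA reads in minimal and 7.60% ± 0.132 in rich medium. Those within 10 nt of the end were 12.6% ± 0.626 in minimal and 9.37% ± 0.198 in rich medium, a difference larger than the spread between libraries. They came from 52 genes, but 6 of them (SNR62, SNR47, SNR75, SNR72, SNR68 and SNR17A) held 65.9% of the 804 reads. Without these 6 the share was 5.48% and 5.19% in minimal libraries, against 3.64% and 3.89% in rich libraries, so the direction was the same. No p-value is given for this sum over chosen genes.

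Other genes with structured RNA products were set beside the snoRNA genes. The 275 tRNA genes with their 500 nt downstream summed to 1114 ± 0.706 CPM in minimal and 2509.6 ± 107 CPM in rich medium (SD, n = 2 each), a fold of 0.444, and 43 of the 57 tested fell. The 6 snRNA genes summed to 64.6 ± 3.44 CPM in minimal and 81.1 ± 10.4 CPM in rich medium, and 1 of the 2 tested fell. The RNase P, RNase MRP, signal recognition particle and telomerase RNA genes, 4 in all, overlapped between the media, with 95.4 and 75.8 CPM in minimal libraries, against 92.8 and 116 CPM in rich libraries, a fold of 0.819. Of the genes annotated as ncRNA 0 of the 6 tested passed the threshold, and their 21 genes summed to 126 ± 23.9 CPM in minimal and 175 ± 5.31 CPM in rich medium, a fold of 0.721. Of the protein-coding genes tested 14.5% fell. A fold below 0.5 was thus measured in the tRNA windows as well as in the snoRNA genes, and folds of 0.721 to 0.819 for the snRNA, RNase P group and ncRNA genes. For the snRNA and the ncRNA sums both minimal libraries also lay below both rich libraries. Of the 76 snoRNA genes 33 have a same-strand gene end within 500 nt upstream, and reads that run on from such a gene cannot be told apart from those of the snoRNA. In the 20 snoRNA genes with no same-strand neighbour within 500 nt on either side, the sums were 172 ± 2.58 CPM in minimal and 401 ± 30.5 CPM in rich medium, a fold of 0.430.

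The protein-coding genes for snoRNA particles, for the termination complex and for the enzymes that tail and trim snoRNA precursors were read from 7 lists. Of their 58 genes 54 were tested, of which 13 rose (24.1%) and 5 fell (9.26%) in minimal medium, beside 17.7% of all genes tested that rose and 15.7% that fell. Their median log2 change was 0.17, against -0.01 over all genes tested. All values below are from the same edgeR test over all genes. Of the C/D core proteins SNU13 rose with 505 ± 10.4 CPM in minimal and 232 ± 79.2 CPM in rich medium (log2 change 1.21, adjusted p = 2.18e-05), and NOP58 rose with a log2 change of 0.59. NOP1 and NOP56 did not pass the threshold, at -0.25 and 0.33. Of the H/ACA core, GAR1 rose with a log2 change of 0.63 and CBF5 with 0.46, while NOP10 fell, at 537 ± 60.4 CPM in minimal and 1213 ± 124 CPM in rich medium (SD, n = 2 each; log2 change -1.10, adjusted p = 1.85e-05).

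Among assembly factors NAF1, which brings Cbf5 to H/ACA RNAs, rose, at 192 ± 1.26 CPM in minimal and 70.7 ± 1.68 CPM in rich medium (log2 change 1.52, edgeR adjusted p = 7.36e-07). PIH1 rose with a log2 change of 1.36 and its partner TAH1 fell with -1.15, both members of the chaperone complex that assembles C/D particles. Of the termination list NAB3, the RNA-binding partner of Nrd1, rose with a log2 change of 0.74, SSU72, a polymerase phosphatase, fell with -0.95, and NRD1 and SEN1 did not pass the threshold, at 0.55 and 0.28. Of the TRAMP genes the helicase gene MTR4 rose with 0.77 and the poly(A) polymerase gene TRF5 with 0.75, while PAP2, the other poly(A) polymerase gene, stood at -0.13 without passing the threshold. Of 12 exosome genes tested RRP6, the nuclear exonuclease, rose with 0.95 and MTR3 with 0.75, and LRP1, for an Rrp6 cofactor, fell with -0.91. Of 10 processing genes tested PAB1, the poly(A)-binding protein, rose with 1.496 and the exonuclease gene REX2 with 0.91, and the exonuclease gene RNH70 fell with -0.93.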

How the data were processed

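Reads at cleavage positions were analysed in 4 S. cerevisiae libraries. Total RNA was the starting material and poly(A)+ 3′ ends were amplified, per the labels' protocols. The aligner was Bowtie2 (no version), per the submitters' processing notes, which name a fission yeast assembly for all libraries; the S. cerevisiae assembly is not given in the sources used here. The authors deposited counts of reads for each strand and cleavage position, without normalization. On R64 the base after a position with at least 20 reads was A in at most 0.646% of cases per chromosome, against 19.0% to 29.0% for the base 8 nt downstream, so R64 coordinates were used.

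A read within a gene went to that gene, and one up to 500 nt past an end to the nearest preceding same-strand gene, stopping at the next gene's start (start codon for coding genes). Windows of intronic snoRNA genes stopped at the intron's end. CPM is reads per 1000000 nuclear reads. Tests used edgeR 4.0.16 (quasi-likelihood, TMM, filterByExpr) in R 4.3.3 on all genes, with Benjamini-Hochberg adjustment and a threshold of 0.05. The ratio test used terms for library, region and medium by region. Alternatives were DESeq2 1.42.0, the replicate number as a block, RLE normalization, no filter, windows of 200 and 300 nt, a gene end moved by 10 nt, and each library left out. The scripts were tested on simulated data. Genes named were the 10 most abundant, the 10 largest falls, the intronic genes, U3, models of termination and at most 4 called genes per protein list; other genes are named for their sites, or as a count of 5 or fewer, after their values were seen. The members, lists and tests were chosen with earlier results of these data known. Same-group libraries differed by more than sampling noise (chi-square per degree of freedom 2.42 in minimal and 9.26 in rich medium), so each counted as 1 replicate.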

Additional observations from a re-analysis of the deposited data

How the results depend on the processing

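No alternative tried turned the direction of a snoRNA gene that fell. Of the 29 genes that fell in minimal medium, 9 passed the threshold under every setting in which they were tested: SNR33, SNR61, SNR45, SNR71, SNR17A, SNR35, SNR63, SNR9 and SNR49. The count of genes that fell was 12 with DESeq2, and ran from 13 to 26 with a library left out. For reads within the gene it was 1 with DESeq2 and from 1 to 5 with a library left out, and for reads past the end 8 and from 9 to 21. No snoRNA gene rose under any setting. The replicate numbers do not pair the libraries by the labels, and deviations of same-numbered libraries correlated at 0.0532. With the replicate block 31 genes fell, beside 805 of all 4651 genes tested. Of the 31, 28 were shared with the fit without the block, and the block changed no other count by over 1.5 times. Median log2 change stayed between -1.17 and -1.01. For the sum over snoRNA genes, log2 of minimal over rich was -1.22 in genes clear of same-strand neighbours, against -1.05. The share of reads past the end was 82.7% in minimal and 82.1% in rich medium with a window of 200 nt, 76.9% and 78.7% with the end moved by 10 nt, 81.7% and 80.7% without SNR33, and 78.0% and 77.6% in genes clear of neighbours. In windows of 300 nt, GTAA stood past 67.1% of snoRNA genes, GTAG past 60.5%, TCTT past 98.7%, CTTG past 82.9% and TATATA past 27.6%. Shares past the end without the genes that hold most of the reads within, and without SNR33 for H/ACA genes, were chosen after seeing the data and are given in the text. So was the count over the protein lists, which with the 8 intron hosts was 18 rising and 6 falling of 62 genes tested. Depth limits the low genes: 24 of 76 had under 20 reads.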
